A study of Homo sapiens with 9 samples.

Results

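The cytosolic ribosomal protein genes are the genes whose symbols begin with RPL (large subunit), RPS (small subunit) or name the stalk proteins RPLP0, RPLP1 and RPLP2 and the small subunit protein RPSA. They were picked by symbol alone, without regard to their values. The rule found 77 of the 16630 genes in the table, 47 of the large and 30 of the small subunit. RPS18, RPL3L and RPL10L were not analysed here. All 77 had a value in every library.

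Ribosomal proteins assemble with ribosomal RNA into the particles that translate mRNA, and growing cells make them in large and roughly balanced amounts. Their mRNAs typically begin with a cytosine followed by a run of pyrimidines, the 5′ terminal oligopyrimidine (TOP) tract, through which the kinase complex mTORC1 controls their translation. Several of the proteins have known roles outside the ribosome, such as RPL5 and RPL11, which can bind and inhibit MDM2, the regulator of p53.

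RNA was measured in H1650, an established human non-small cell lung cancer line, on day 3 after transfection at 20 nM. The siMENA group received a pool of siRNAs against the transcripts of ENAH, the gene of hMENA, which regulates actin filament growth. The siMENA11a group received 3 siRNAs that match exon 11a, the exon of the epithelial isoform hMENA11a. The Control group received a non-targeting pool, so every group carried a transfected siRNA, and all came from the same line. Each group had 3 libraries of ribosome-depleted total RNA. Values are FPKM, fragments scaled by transcript length and by library total. The table holds no counts, so the depth is unknown. In 56 of the 77 genes at least 1 value appeared to lack its decimal point and was divided by 1000.

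The knockdown was visible in ENAH. It had 4.43, 5.80 and 5.57 FPKM in siMENA libraries, 9.98, 11.0 and 10.3 in siMENA11a libraries and 26.1, 30.0 and 26.1 in Control libraries. The log2 fold change was -2.18 for siMENA and -1.31 for siMENA11a against Control (limma, Benjamini-Hochberg adjusted p = 6.41e-06 and 6.29e-05). An exact two-sided permutation test gave p = 0.1 for each, the smallest that 3 libraries against 3 allow. All 6 epithelial markers were listed, the highest being KRT8 at 1446 FPKM. The lung markers SFTPB and SFTPC were near 0, at 0.188 and 0.0802 FPKM. The highest marker of another cell type was FAP of fibroblasts, at 7.05 FPKM. Whether such cells bear on any result was not tested. In bulk RNA, fewer cells and less RNA per cell cannot be told apart.

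Ribosomal protein genes were among the most abundant mRNAs in these cells. Their mean over the 9 libraries was above 100 FPKM for 74 of the 77 and above 1000 FPKM for 31. The median was 862.4 FPKM for the large subunit and 900.7 FPKM for the small one. RPL41, the smallest ribosomal protein, was highest, with 4195, 3991 and 3614 FPKM in siMENA, 3965, 3857 and 4361 FPKM in siMENA11a and 3636, 3194 and 3423 FPKM in Control libraries. RPL37A, of the large subunit, ran between 2343 and 3103 FPKM, and RPS15A, of the small subunit, between 1894 and 2589 FPKM. The 3 lowest were RPL39L, a paralog of RPL39 (24.63, 27.26 and 24.01 FPKM in siMENA, 19.75, 19.65 and 20.70 in siMENA11a, and 24.30, 32.32 and 22.12 in Control), RPL27A at a mean of 76.87 FPKM and RPS27L, a paralog of RPS27, at 84.66 FPKM. RPS27 ran between 1788 and 2508 FPKM and RPL39 between 1305 and 1848 FPKM. Each paralog was thus far below its partner in every library.

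**Figure D1:**
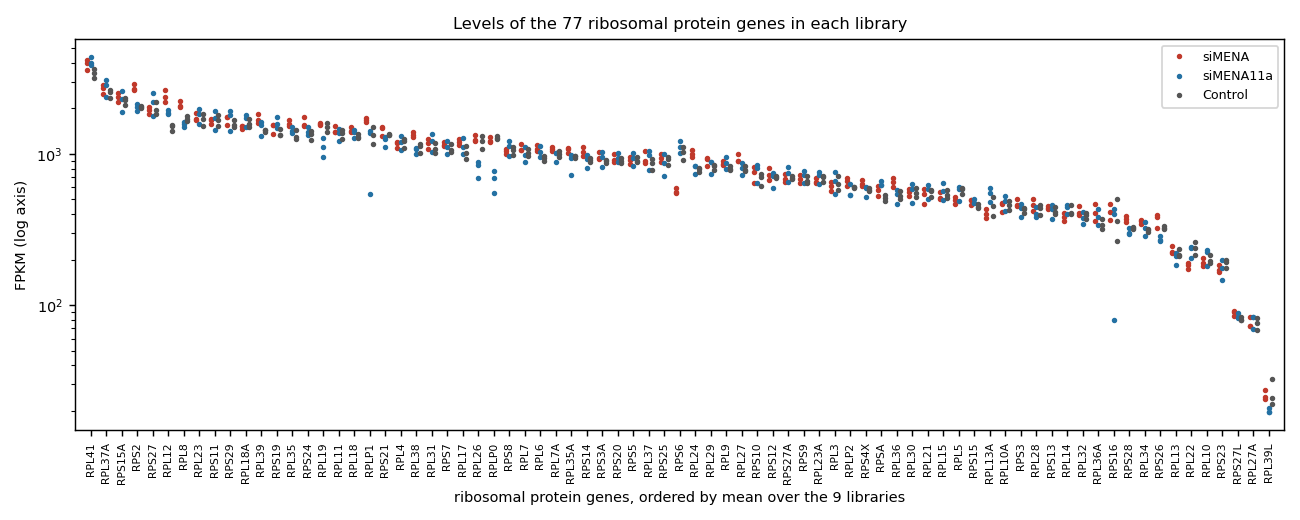
FPKM on a log axis of the 77 ribosomal protein genes, ordered by their mean over the 9 libraries, with 1 point per library coloured by group. Most genes lie above 100 FPKM with their 9 points close together, and the single low points of RPS16 and RPLP1 belong to siMENA11a replicate 3.

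Levels were steady between libraries. The median coefficient of variation within a group was 6.75% for ribosomal protein genes and 7.43% for all genes tested. The highest library was a median of 1.33 times the lowest, and 11 of the 77 exceeded 1.5 times. Together the 77 genes held 13.8%, 13.0% and 13.3% of the FPKM sum in siMENA libraries, 12.7%, 11.7% and 13.6% in siMENA11a libraries and 13.1%, 11.6% and 12.8% in Control libraries. The group means were 13.4% ± 0.40 for siMENA, 12.7% ± 0.95 for siMENA11a and 12.5% ± 0.79 for Control (SD, n = 3 each), and the 3 groups overlap. Single libraries held many of the extreme values. siMENA11a replicate 3 held the highest of the 9 values for 37 of the genes and siMENA replicate 1 for 30, whereas siMENA11a replicate 2 held the lowest for 41 and Control replicate 2 for 13. By group, the highest value lay in siMENA for 35 genes, in siMENA11a for 38 and in Control for 4. The lowest lay in siMENA for 10, in siMENA11a for 48 and in Control for 19. Such counts are not given here for all genes, so these are not read as particular to ribosomal protein genes. Beside this, the summed share of the noncoding RNAs RPPH1 and RMRP was 12.2%, 12.6% and 14.0% in siMENA, 14.4%, 14.6% and 11.1% in siMENA11a and 10.7%, 14.5% and 12.3% in Control. The part of this share in the ribosomal protein values was not tested.

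Under siMENA, 2 ribosomal protein genes fell and 5 rose. RPS6 and RPL22 were lower, and RPL12, RPS2, RPL24, RPL8 and RPL38 were higher. The 7 are 9.09% of the 77, against 18.6% of all 13273 genes tested (limma on log2(FPKM + 1), adjusted p under 0.05). In this fit both directions were below the background, which was 10.3% higher and 8.24% lower. Rises were not below it under every alternative. With a replicate block and GC and length correction together, 14 of the 77 rose, against 1957 of 11825 genes. Without genes holding a divided value, 3 of 21 rose, against 730 of 8461 genes. The 7 calls were 3 without siMENA replicate 1, 4 without siMENA replicate 2 or Control replicate 1 or 2, and 2 without Control replicate 3. The median log2 fold change was 0.096 for the 77 genes and 0.038 for all genes, and 58 of the 77 lay within 0.2 of no change. The share of all genes within 0.2 is not given here. At an unadjusted p under 0.05 there were 18 of the 77, against 4454 of all 13273 genes.

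RPS6 is the small subunit protein phosphorylated by S6 kinase downstream of mTORC1. It had 558.9, 548.1 and 590.4 FPKM in siMENA libraries and 1110, 916.2 and 1027 FPKM in Control libraries. The groups were far apart, the siMENA mean being 55.6% of the Control mean, and siMENA11a libraries (1116, 1007 and 1212 FPKM) overlapped with Control. The log2 fold change for siMENA was -0.84 (SE 0.097, adjusted p = 0.000515). RPL12, a large subunit protein at the base of the stalk, was the strongest rise. It had 2654, 2211 and 2386 FPKM in siMENA libraries and 1543, 1410 and 1529 FPKM in Control libraries. Its log2 fold change was 0.69 (SE 0.10, adjusted p = 0.0019). RPS6 and RPL12 were the only 2 of the 7 that passed under every alternative in which they could be fitted.

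The other 5 changes were smaller. RPS2, of the small subunit, had 2903, 2642 and 2670 FPKM in siMENA and 2059, 2039 and 2005 FPKM in Control libraries, a log2 fold change of 0.43 (adjusted p = 0.0145). It did not pass without siMENA replicate 1 or Control replicate 3 (0.0623 and 0.0617), nor after quantile normalization (0.0797). RPL22, an RNA-binding large subunit protein, had 189.3, 174.1 and 184.6 FPKM in siMENA and 259.4, 214.3 and 238.5 FPKM in Control libraries, a log2 fold change of -0.37 (adjusted p = 0.0159). It did not pass without siMENA replicate 2, Control replicate 1 or Control replicate 3 (0.0555 to 0.0596). RPL24, of the large subunit, had 1059, 950.1 and 991.2 FPKM in siMENA and 804.6, 762.5 and 794.7 FPKM in Control libraries, a log2 fold change of 0.34 (adjusted p = 0.0161). It did not pass without siMENA replicate 1, Control replicate 2 or Control replicate 3 (0.0514 to 0.0695). In each of these genes the groups did not overlap. RPL8 and RPL38, also of the large subunit, gained 0.31 and 0.30 on the log2 scale (adjusted p = 0.0375 and 0.0399), and each did not pass in 7 of the 9 fits that left out a library (up to 0.13).

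**Figure D2:**
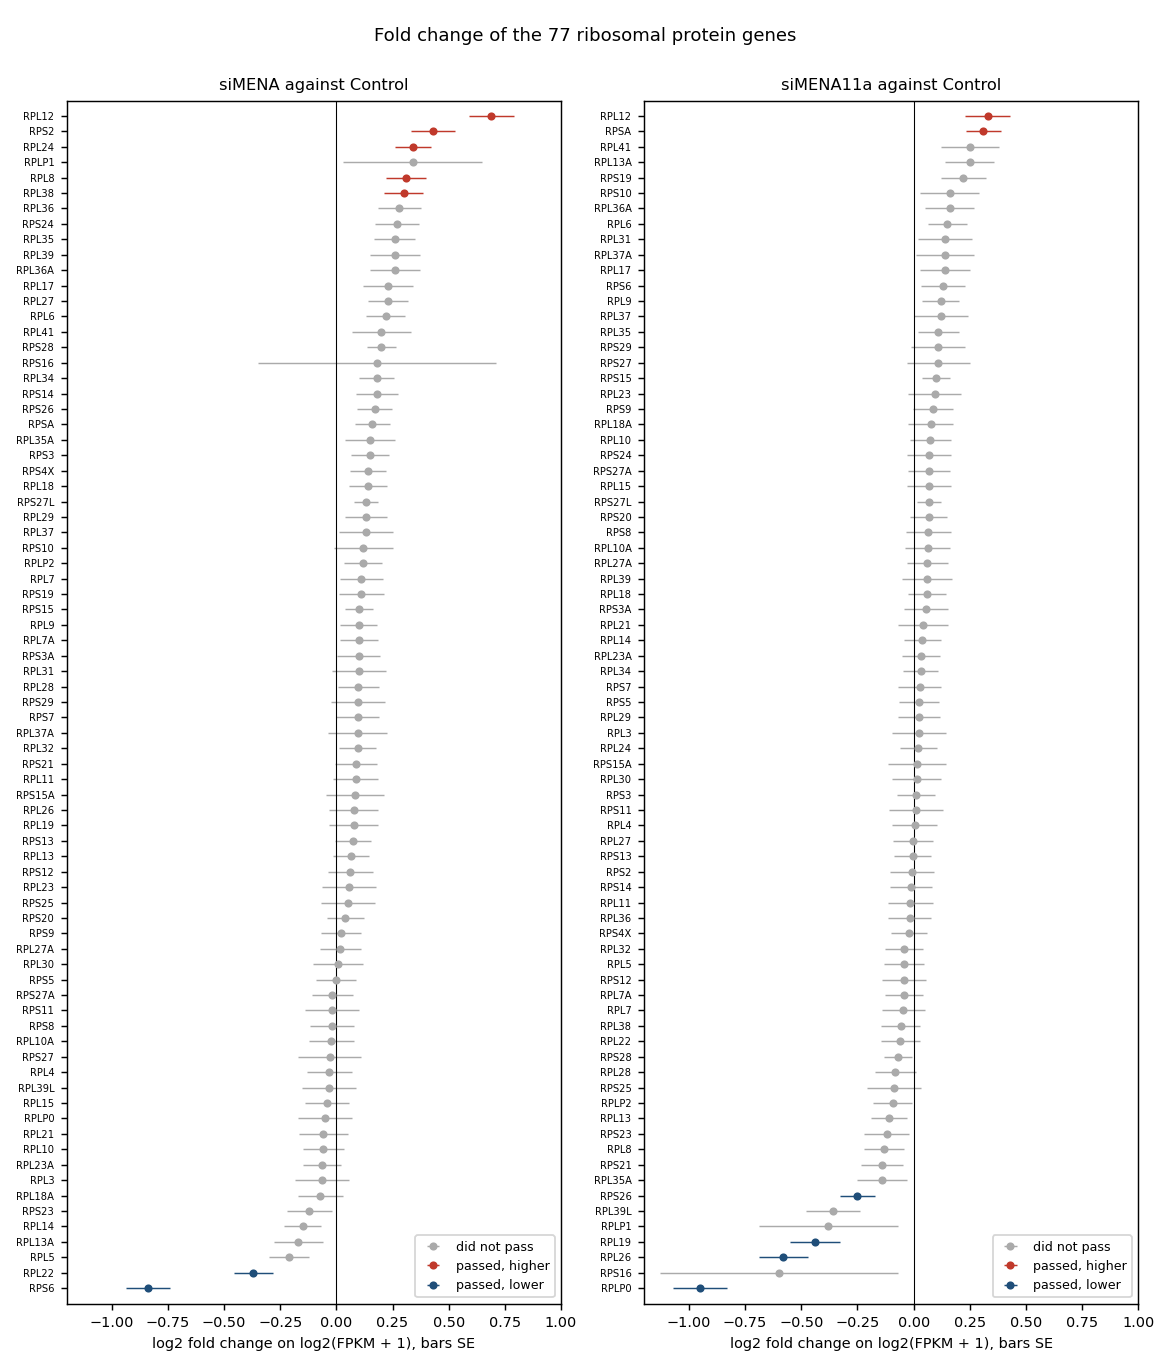
Log2 fold change on the log2(FPKM + 1) scale of each of the 77 genes, for siMENA against Control on the left and siMENA11a against Control on the right, with bars of 1 SE, red where the gene passed as higher and blue as lower. RPS6 at -0.84 and RPL12 at 0.69 lie at the ends on the left, RPLP0 at -0.95 at the lower end on the right, and the bulk of both panels lies close to 0.

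The other genes followed by name did not pass under siMENA. RPL5, a partner of RPL11 in the particle that binds MDM2, had 521.9, 467.7 and 497.3 FPKM in siMENA and 596.3, 541.6 and 581.8 FPKM in Control libraries (log2 fold change -0.21, adjusted p = 0.133). Its groups did not overlap, and it passed as lower after quantile normalization (0.0387) and with a replicate block and GC and length correction together (0.0197). RPL11 had 1527, 1405 and 1385 FPKM in siMENA and 1446, 1257 and 1370 FPKM in Control libraries (adjusted p = 0.602), and these overlapped. RPS19, the gene first linked to Diamond-Blackfan anaemia, was at 0.11 on the log2 scale (adjusted p = 0.475). RPS27A, which is made as a fusion with ubiquitin, was at -0.018 (0.913). Of the paralog pairs, RPS27L was at 0.13 (adjusted p = 0.114) and RPS27 at -0.029 (0.905), and RPL39L was at -0.035 (0.862) and RPL39 at 0.26 (0.112). RPL3 and RPL10, at -0.063 and -0.059, also did not pass (0.758 and 0.696). Every siMENA library was above every Control library for 24 of the 77 genes, or 31.2%, against 23.8% of all genes. The reverse held for 3, or 3.90%, against 16.3% of all genes.

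Under siMENA11a, RPLP0, RPL26, RPL19 and RPS26 fell and RPL12 and RPSA rose. These 6 are 7.79% of the 77, against 19.5% of all genes tested, with a background of 8.16% higher and 11.3% lower. The 6 calls were 2 without siMENA11a replicate 1 or Control replicate 1, and 3 without siMENA11a replicate 3. Without Control replicate 3 there were 3, of which 2 were among the 6 and RPL39L was new. The median log2 fold change was 0.024 for the 77 genes and -0.012 for all genes, and 65 of the 77 lay within 0.2 of no change. Again, the share of all genes within 0.2 is not given. At an unadjusted p under 0.05 there were 7 of the 77, against 4476 of all 13273 genes.

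RPLP0 encodes the protein that anchors the stalk, through which elongation factors are recruited. It had 694.5, 549.9 and 770.8 FPKM in siMENA11a libraries and 1318, 1262 and 1269 FPKM in Control libraries, so that the siMENA11a mean was 52.4% of the Control mean. The groups were far apart, and siMENA libraries (1291, 1205 and 1221 FPKM) stood with Control. The log2 fold change was -0.95 (SE 0.12, adjusted p = 0.000728). RPL26, a large subunit protein that also binds the p53 mRNA, had 841.4, 696.6 and 881.4 FPKM in siMENA11a and 1303, 1079 and 1217 FPKM in Control libraries. Its log2 fold change was -0.58 (SE 0.11, adjusted p = 0.00651). RPLP0 and RPL26 were the only 2 of the 6 that passed under every alternative in which they could be fitted.

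RPL19, of the large subunit, had 1110, 958.5 and 1267 FPKM in siMENA11a and 1594, 1390 and 1507 FPKM in Control libraries, a log2 fold change of -0.44 (adjusted p = 0.0227). It did not pass without siMENA11a replicate 1, Control replicate 1 or Control replicate 3 (0.0637 to 0.0748), nor in a fit of the 2 groups alone (0.0571). RPSA, which is known also as a laminin receptor, had 618.6, 618.8 and 663.8 FPKM in siMENA11a and 490.5, 535.0 and 508.6 FPKM in Control libraries, a log2 fold change of 0.31 (adjusted p = 0.0211). It did not pass without siMENA11a replicate 1 or 3, or Control replicate 1 or 3 (0.0502 to 0.0707). RPL12 had 1855, 1830 and 1952 FPKM in siMENA11a libraries, above every Control library and below every siMENA library, with a log2 fold change of 0.33 against Control (adjusted p = 0.0454). RPS26, of the small subunit, had 269.6, 264.2 and 286.9 FPKM in siMENA11a and 322.3, 334.8 and 320.3 FPKM in Control libraries (log2 fold change -0.25, adjusted p = 0.0488). RPL12 and RPS26 each did not pass in 8 of the 9 fits that left out a library (up to 0.132 and 0.129).

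Of the other genes followed by name, none passed against Control. RPL5 was at -0.042 (adjusted p = 0.79), RPL11 at -0.014 (0.942), RPS27A at 0.069 (0.648) and RPS6 at 0.13 (0.396). RPS19 had 1586, 1475 and 1742 FPKM in siMENA11a and 1462, 1334 and 1324 FPKM in Control libraries, which did not overlap (log2 fold change 0.22, adjusted p = 0.158). RPL39L was at -0.36 (adjusted p = 0.0561) with every siMENA11a library below every Control library. It passed with a replicate block (0.0281), with GC and length correction (0.0466), with both together (0.0166) and without Control replicate 3 (0.0294). Its partner RPL39 was at 0.060 (0.736). Every siMENA11a library was above every Control library for 5 of the 77 genes, or 6.49%, against 16.6% of all genes, and below for 7, or 9.09%, against 20.2%.

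**Figure D3:**
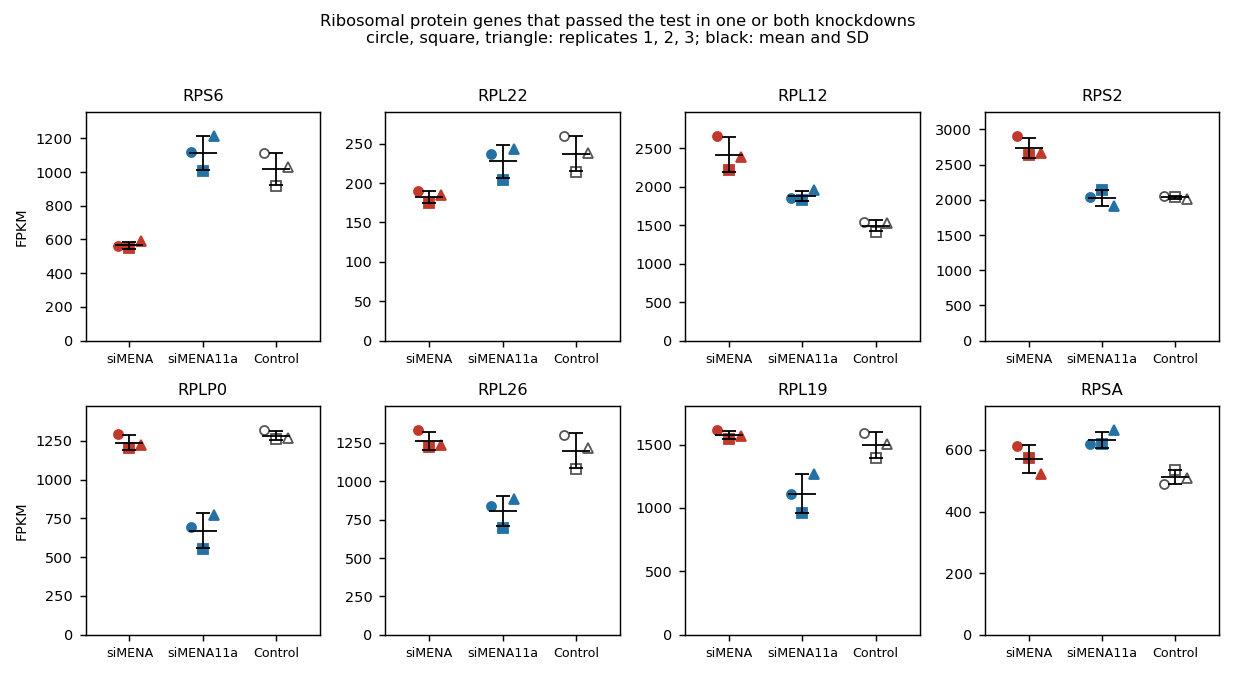
FPKM by library for 8 ribosomal protein genes that passed in 1 or both comparisons with Control, with siMENA, siMENA11a and Control side by side, replicates as circle, square and triangle, and black bars for the mean and SD. RPS6 is low in the 3 siMENA libraries alone, RPLP0, RPL26 and RPL19 are low in the 3 siMENA11a libraries alone, and RPL12 steps down in the order siMENA, siMENA11a, Control.

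The 2 knockdowns were compared with each other directly, which tests the difference between them. Of the 77 genes, 3 were higher and 11 lower in siMENA11a than in siMENA, together 18.2%, against 36.6% of all genes (14.4% higher and 22.2% lower). At an unadjusted p under 0.05 there were 21 of the 77, against 6168 of all 13273 genes. RPS6 was higher by 0.97 on the log2 scale (SE 0.097, adjusted p = 7.71e-05). RPL13A (0.42, adjusted p = 0.0171) and RPL22 (0.31, 0.0185) were also higher. RPLP0 was lower by 0.90 and RPL26 by 0.65 in siMENA11a (log2 fold changes of -0.90 and -0.65, adjusted p = 0.00033 and 0.00148). RPL19, RPL8, RPS2, RPS26, RPL38, RPL24 and RPS28 were lower too, at log2 fold changes of -0.51, -0.44, -0.43, -0.42, -0.35, -0.32 and -0.27. For these 7, and for RPS6, RPLP0 and RPL26, the call held under every alternative in which they could be fitted. RPL12 (-0.36, adjusted p = 0.0197) and RPL36 (-0.29, 0.0338) did not pass under some of them, nor did RPL13A and RPL22. This comparison shares its libraries with the 2 comparisons with Control.

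Of the stalk genes, RPLP0 alone passed under siMENA11a. Its partners RPLP1 and RPLP2, the acidic proteins that bind to it in pairs, did not pass (adjusted p = 0.428 and 0.478). Their log2 fold changes were -0.38 (SE 0.31) and -0.094 (SE 0.085). Whether they differed from that of RPLP0 was not tested. RPLP2 had 633.8, 535.3 and 530.7 FPKM in siMENA11a, 694.2, 615.7 and 661.8 FPKM in siMENA and 607.6, 592.6 and 608.3 FPKM in Control libraries. RPLP1 had 1421, 1371 and 539.1 FPKM in siMENA11a, 1721, 1636 and 1665 FPKM in siMENA and 1160, 1331 and 1495 FPKM in Control libraries. The low RPLP1 value belongs to siMENA11a replicate 3, without which RPLP1 was at 0.079 in siMENA11a against Control (adjusted p = 0.685). Without that library RPLP1 passed as higher in siMENA than in Control (log2 fold change 0.34, adjusted p = 0.0471, against 0.474 with it). RPLP1 also passed as lower in siMENA11a than in siMENA without siMENA11a replicate 1 (adjusted p = 0.0489) or replicate 2 (0.046). Without replicate 3 that log2 fold change was -0.26 (0.115), against -0.72 (0.0926) with all libraries.

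The same library was low in RPS16, a small subunit protein. RPS16 had 397.7, 429.6 and 79.23 FPKM in siMENA11a, 363.8, 411.4 and 463.7 FPKM in siMENA and 266.9, 357.3 and 503.4 FPKM in Control libraries. Its highest value was 6.35 times its lowest, the widest range of the 77, and it passed in no comparison. Without siMENA11a replicate 3 the log2 fold change of siMENA11a against Control was 0.18 (SE 0.22), against -0.60 (SE 0.53) with it.

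**Figure D4:**
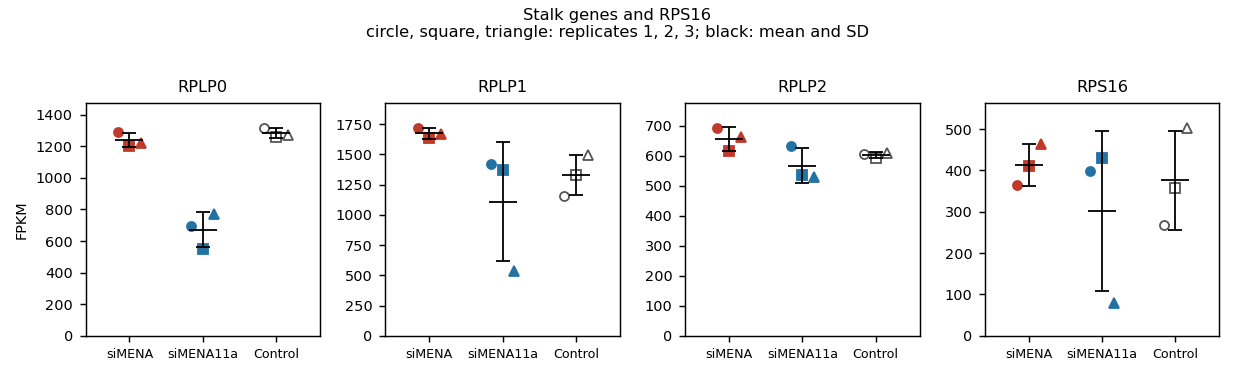
FPKM by library for the stalk genes RPLP0, RPLP1 and RPLP2 and for RPS16, drawn with the same symbols, groups and error bars for the 9 libraries. RPLP0 is low in all 3 siMENA11a libraries, whereas RPLP1 at 539.1 and RPS16 at 79.23 are low in siMENA11a replicate 3 only.

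Starts of genes that passed are shown because TOP tracts are what ribosomal protein mRNAs share. Of the 12 genes that passed in either comparison with Control, 10 are shown. The lines give 10 bases before and 12 from the annotated start on the gene's strand, from RefSeq (GRCh38.p14), with the longest pyrimidine run in capitals. On the minus strand lie RPS6 (chr9:19380225-19380246), RPL12 (chr9:127451395-127451416), RPL22 (chr1:6199584-6199605), RPL24 (chr3:101686707-101686728), RPLP0 (chr12:120201100-120201121) and RPL26 (chr17:8383182-8383203). On the plus strand lie RPL38 (chr17:74203668-74203689), RPSA (chr3:39406710-39406731), RPS26 (chr12:56041908-56041929) and RPL19, which has 2 annotated starts (chr17:39200273-39200294 and chr17:39200313-39200334).
RPS6: gaagttggCCCTCTTTTCCgtg
RPL12: cgatttccggCCTCTCggcttt
RPL22: cgctcaCCTCCCTTTCTaactc
RPL24: atgaTTCTCTCTTTCTTTTCgc
RPL38: aagtctcgTTCTTTTTCgtcct
RPLP0: ggcgcgaggCCCTTCTCTCgcc
RPL26: gcgtgtagTTCTCTTCCCTTTT
RPSA: tgccgcctgTCTTTTCCgtgct
RPS26: acataacctcgaTTTTCTTCCg
RPL19, upstream start: TCTCCCCTTCgcagataatggg
RPL19, downstream start: agCTCTTTCCTTTCgctgctgc
In 8 of the 10 a cytosine followed by at least 4 pyrimidines stood at the annotated start, both in genes that rose and in genes that fell. RPS26 and RPL19 did not have it. Of the 77 genes, 62 were in the promoter table. Such a start was present in 45 of the 62, or 72.6%, against 5.14% of 27305 genes. A pyrimidine run of at least 6 in this window was present in 54 of them, or 87.1%, against 28.1% of all genes.

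The mRNAs were also searched for short words that occur in the targeted exon. Exon 11a of ENAH is 63 bases long, at chr1:225504991-225505053 in GRCh38, and holds the overlapping 7-base words CCAAGGA and CAAGGAA. These words, and CAGAATA and AGAATAA for siMENA, came from an earlier analysis of genes that were lower in these same libraries, so they are not independent of the values, and the siRNA sequences were not analysed here. One transcript per gene (GENCODE 29) was searched on the mRNA strand. A word of exon 11a was present in 29 of the 77 ribosomal protein mRNAs, or 37.7%, against 53.3% of 13810 genes. It was present in the 4 genes that fell under siMENA11a, in the 2 that rose and in 23 of the 71 that did not pass. A siMENA word was present in 15 of the 77, or 19.5%, against 35.9% of all genes. It was present in the 2 genes that fell under siMENA, in 0 of the 5 that rose and in 13 of the 70 that did not pass. Because the words came from genes that were lower in these libraries, both splits by call can favour genes that fell. No conclusion is drawn from the splits. The stretches below show these words, in capitals, in coding sequence of the genes that fell.
RPLP0, bases 578 to 604: tttgtgttcaCCAAGGAggacctcact
RPL26, bases 494 to 520: agggcaaataCAAGGAAgaaaccattg
RPL19, bases 549 to 575: aggtctaagaCCAAGGAagcacgcaag
RPS26, bases 484 to 510: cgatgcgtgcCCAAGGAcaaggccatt
RPS6, bases 669 to 695: gaagaggctgCAGAATAtgctaaactt
RPL22, bases 307 to 333: tatttgaagaAGAATAAtctacgtgac
Positions count from the first base of the transcript. RPS6 and RPL22 also hold CCAAGGA, and neither passed under siMENA11a. A shared word is a description of the sequence and not a site.

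Ribosomal protein genes carry small nucleolar RNAs in their introns and have many processed copies. Of the former, 29 were listed inside 21 of the genes. Of the 23 tested, 0 passed in each of the 3 comparisons (limma). At an unadjusted p under 0.05 there were 1 for siMENA, 4 for siMENA11a and 1 for siMENA11a against siMENA. Over all 13273 genes these counts were 4454, 4476 and 6168. For the 29 listed small nucleolar RNAs the median coefficient of variation within a group was 34.0%, against 6.75% for the 77 ribosomal protein genes. SNORA65, inside RPL12, had 40.6, 31.6 and 21.5 FPKM in siMENA and 32.8, 36.0 and 16.1 FPKM in Control libraries, which overlapped. GENCODE annotates at least 1 pseudogene for 74 of the 77 genes, with a median of 10, and reads could be split between copies. RPS6 has 13, RPLP0 5, RPL26 14 and RPL12 50. The table lists 22 such copies, of which 3 had a mean above 10 FPKM. RPL21P28 is among them through siMENA replicate 1 alone, at 143.3 FPKM, its next highest value being 1.124 FPKM. RPL13AP5, a copy of RPL13A, stood at 2348, 2083 and 2278 FPKM in siMENA, 2317, 2005 and 2447 FPKM in siMENA11a and 2342, 1932 and 2192 FPKM in Control libraries. RPL13A itself had 430.4, 379.0 and 398.2 FPKM in siMENA, 550.9, 477.3 and 592.1 FPKM in siMENA11a and 519.6, 389.9 and 455.0 FPKM in Control libraries, so its level is uncertain.

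Paralogs with their own symbols include RPL22L1, which in mouse is repressed by Rpl22. RPL22L1 had 13.4, 11.8 and 10.6 FPKM in siMENA libraries, 8.33, 7.11 and 8.94 in siMENA11a libraries and 6.35, 6.99 and 6.81 in Control libraries. It rose under siMENA (log2 fold change 0.74, SE 0.097, adjusted p = 0.00109), under every alternative in which it could be fitted, while RPL22 fell. The fit without genes holding a divided value included neither RPL22L1 nor RPL22. Under siMENA11a RPL22L1 was at 0.24 (adjusted p = 0.116), and RPL22 was at -0.059 (0.681). Of the 5 such paralogs and read-through genes tested, 2 were higher under siMENA and 1, RPL7L1 (log2 fold change -0.36, adjusted p = 0.0171), was lower under siMENA11a. These are 40.0% and 20.0% of only 5 genes, against 18.6% and 19.5% of all genes. In siMENA11a against siMENA 2 were lower, or 40.0%, against 36.6% of all genes. That count was 1 without siMENA replicate 1 or 2 or siMENA11a replicate 1 or 2. RPL7L1 did not pass without Control replicate 2 or 3 (0.059 to 0.0667). The read-through gene RPL36A-HNRNPH2 gained 1.16 under siMENA (adjusted p = 0.02), at 5.23, 5.17 and 2.45 FPKM in siMENA and 0.833, 1.02 and 2.18 FPKM in Control libraries. It did not pass without siMENA replicate 1 or 2, or Control replicate 1 or 2 (0.0583 to 0.08).

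Lists of genes that make or control ribosomes were set against the same shares of all genes, 18.6% called under siMENA (10.3% higher and 8.24% lower), 19.5% under siMENA11a (8.16% and 11.3%) and 36.6% between the knockdowns (14.4% and 22.2%). The lists were chosen with earlier results of these data known, so a share above that of all genes is not independent of the values. Of 52 ribosome biogenesis factors tested, 23 rose and 1 fell under siMENA, and 1 rose and 6 fell under siMENA11a. Against siMENA, 2 were higher and 32 lower in siMENA11a. The shares called were 46.2%, 13.5% and 65.4%. The median log2 fold changes were 0.19, -0.06 and -0.23 in these 3 comparisons. The count of rises under siMENA was 8 without siMENA replicate 1, 14 without siMENA replicate 2, 11 without Control replicate 1 and 14 without Control replicate 3. NOLC1, a nucleolar chaperone of small nucleolar particles, had 31.6, 30.6 and 28.8 FPKM in siMENA and 20.8, 21.9 and 22.1 FPKM in Control libraries (log2 fold change 0.47, adjusted p = 0.0105). BOP1, of the complex that processes the large subunit RNA, rose by 0.42 under siMENA (adjusted p = 0.00529). EMG1, a methyltransferase of the small subunit RNA, fell under siMENA11a, with 26.0, 19.9 and 24.9 FPKM in siMENA11a and 40.5, 40.6 and 41.1 FPKM in Control libraries (log2 fold change -0.77, adjusted p = 0.00123). Under siMENA11a the 1 rise was lost without siMENA11a replicate 1 or any Control replicate and was 2 without siMENA11a replicate 3, and the 6 falls became 1 without Control replicate 2, 2 without Control replicate 1 or 3, and 3 without siMENA11a replicate 3, and EMG1 passed in each of these.

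Of 19 tested subunits and factors of RNA polymerase I, which makes ribosomal RNA, 7 rose and 0 fell under siMENA, 0 rose and 4 fell under siMENA11a, and 12 were lower in siMENA11a than in siMENA. The shares called were 36.8%, 21.1% and 63.2%, against 18.6%, 19.5% and 36.6% of all genes. POLR1B, its second largest subunit, rose by 0.32 under siMENA (adjusted p = 0.009), and RRN3, an initiation factor, by 0.28 (0.00599). Under siMENA11a POLR2K and POLR1E fell by 0.34 and 0.33 (adjusted p = 0.012 and 0.013). The 7 rises were 2 to 4 without siMENA replicate 1 or 2 or any Control replicate, and the 4 falls were 2 without siMENA replicate 1, siMENA11a replicate 1 or Control replicate 2 or 3.

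Of 22 tested genes that control TOP mRNAs and ribosome output, 3 rose and 1 fell under siMENA, and 0 rose and 1 fell under siMENA11a. These are 18.2% and 4.55%, against 18.6% and 19.5% of all genes. MYC, a transcription factor for ribosome genes, had 36.6, 37.2 and 36.7 FPKM in siMENA, 25.5, 28.1 and 23.4 FPKM in siMENA11a and 22.8, 24.0 and 25.5 FPKM in Control libraries, and rose under siMENA (log2 fold change 0.59, adjusted p = 0.000522). MTOR, the kinase of mTORC1, had 14.3, 15.7 and 15.8 FPKM in siMENA, 21.4, 22.1 and 20.7 FPKM in siMENA11a and 23.5, 23.0 and 24.5 FPKM in Control libraries, and fell under siMENA (log2 fold change -0.60, adjusted p = 0.000179). RPS6KB2, an S6 kinase, rose by 0.37 under siMENA (adjusted p = 0.00948) and fell by 0.27 under siMENA11a (0.037), the fall being lost in 7 of the 9 fits without a library (up to 0.122). Of 20 other genes listed as having TOP mRNAs, not all of them of translation, 1 rose and 1 fell under siMENA (10.0%) and 1 fell under siMENA11a (5.00%), again below the shares of all genes. IMPDH2, an enzyme of guanine nucleotide synthesis, rose by 0.31 (adjusted p = 0.00455). EEF1D, of an elongation factor, fell by 0.26 under siMENA (0.0161), a call lost without siMENA replicate 2 or Control replicate 1. COX4I1, of the respiratory chain, fell by 0.27 under siMENA11a (0.00998). Of 33 translation initiation factors, 2 rose and 2 fell under siMENA (12.1%) and 3 fell under siMENA11a (9.09%), against 18.6% and 19.5% of all genes. The 2 rises were 0 without siMENA replicate 1 or 2 and 1 without siMENA11a replicate 1 or any Control replicate. The 2 falls were 1 without any 1 siMENA or Control replicate, and the 3 were 1 without Control replicate 1.

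**Figure D5:**
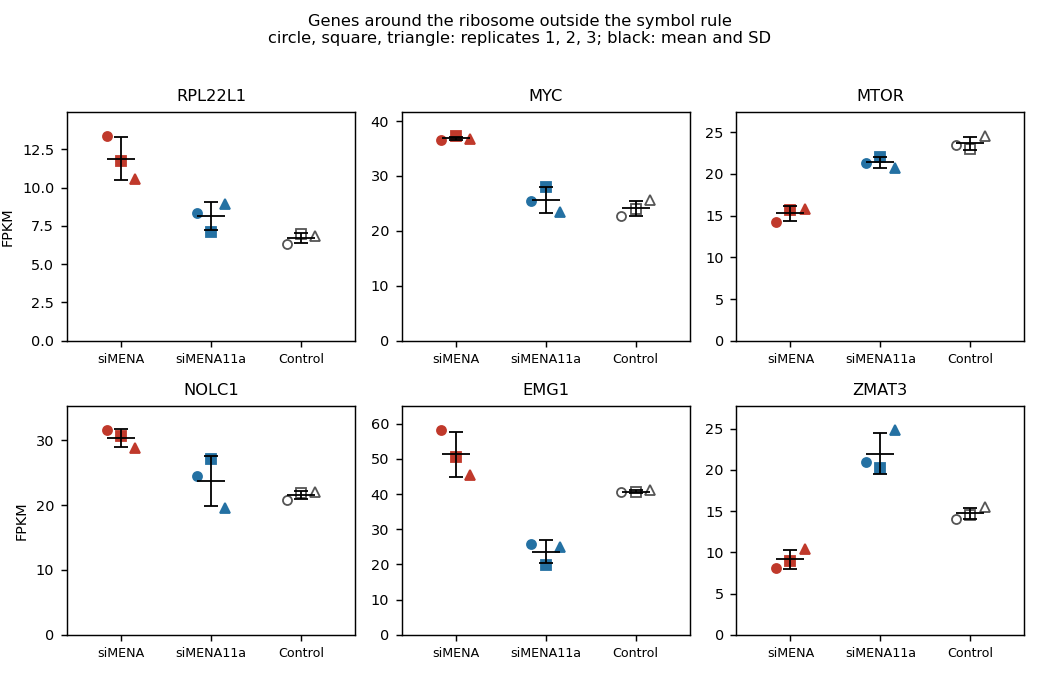
FPKM by library for RPL22L1, MYC, MTOR, NOLC1, EMG1 and ZMAT3, genes around the ribosome that the symbol rule does not take in, with groups from left to right as siMENA, siMENA11a and Control and black bars for the mean and SD. RPL22L1, MYC and NOLC1 are highest and MTOR and ZMAT3 lowest in siMENA, while EMG1 is lowest in siMENA11a.

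Chaperones and importers bring ribosomal proteins to the nucleolus. Of 15 tested, 3 rose under siMENA and 2 under siMENA11a, and 0 fell in either. These are 20.0% and 13.3%, against 18.6% and 19.5% of all genes. PDCD2L, related to a chaperone of RPS2, had 16.5, 17.6 and 16.6 FPKM in siMENA and 10.0, 10.9 and 10.8 FPKM in Control libraries (log2 fold change 0.63, adjusted p = 0.000383). TNPO1, an import receptor, rose under siMENA11a, with 59.9, 70.3 and 64.0 FPKM in siMENA11a and 41.6, 46.9 and 43.8 FPKM in Control libraries (log2 fold change 0.54, adjusted p = 0.00133). The 3 rises under siMENA were 1 without siMENA replicate 1 or 2 or Control replicate 1 or 3, and PDCD2L was the 1 that passed under every alternative. The 2 under siMENA11a were 1, TNPO1, without any 1 library other than siMENA replicate 3 or siMENA11a replicate 2. Of 9 small nucleolar RNA host genes, 3 rose and 1 fell under siMENA (44.4%) and 2 rose under siMENA11a (22.2%), SNHG15 rising by 0.49 under siMENA (adjusted p = 0.0046). The 2 rises under siMENA11a were 1 without siMENA11a replicate 1 or 3 or Control replicate 3.

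Of 17 genes of p53 and the ribosomal stress response, 3 rose and 2 fell under siMENA and 2 rose and 1 fell under siMENA11a. These are 29.4% and 17.6%, against 18.6% and 19.5% of all genes. ZMAT3, a p53 target, went opposite ways in the knockdowns. It had 8.14, 8.90 and 10.45 FPKM in siMENA, 20.9, 20.3 and 24.8 FPKM in siMENA11a and 14.1, 14.6 and 15.5 FPKM in Control libraries. The log2 fold change was -0.63 for siMENA (adjusted p = 0.00232) and 0.54 for siMENA11a (adjusted p = 0.00459), and the difference between the knockdowns was 1.18 (adjusted p = 3.09e-05). BBC3, a p53 target that promotes cell death, rose by 0.33 under siMENA (adjusted p = 0.0056), and MDM2 fell by 0.19 (0.0436), a call lost in 6 of the 9 fits without a library (up to 0.157). The 3 rises under siMENA were 1 without siMENA replicate 1 or 2 or Control replicate 1. The 2 falls were 1 without any 1 siMENA replicate, siMENA11a replicate 1 or Control replicate 2 or 3, and the fall under siMENA11a was lost without any 1 library other than Control replicate 1.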

How the data were processed

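The authors deposited 1 table of FPKM values for 16630 genes in 9 libraries. Per the labels' protocols, RNA was depleted of ribosomal RNA and read as stranded pairs of 75 bases. The submitters' processing notes name hg19. With aligner, quantifier and annotation not given in the sources used here, how reads shared with pseudogenes were counted is unknown. The depth cannot be had from FPKM.

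Part of the table appears to have lost its decimal point: 11524 of 149670 values (7.70%) were whole numbers at least 198 times above the rest of their gene, or in genes with only whole numbers. They were divided by 1000, a reading that the original values were not at hand to settle. Among ribosomal protein genes this touched 358 of 693 values, in 56 genes, 12 of which had only whole numbers and so no other value to set them against. A missing value kept 1286 genes out of the tests.

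The 13273 complete genes that averaged 0.5 FPKM or more, all 77 members among them, were compared as log2(FPKM + 1) with limma 3.58.1 in R 4.3.3, in 1 fit over 9 libraries with group as the only term, a mean-variance trend and 6 residual degrees of freedom. The Benjamini-Hochberg adjustment ran over all genes within each comparison, and adjusted p under 0.05 passed. A fold change on this scale understates low genes. Groups came from the sample titles, and the series text calls the libraries biological replicates. Tested on simulated data for siMENA against Control (13273 genes), the fit recovered 80% of genes changed by 0.5 and 98% of those changed by 1 on the log2 scale. Of its calls, 7.77% were false. Changes were planted only in the more highly expressed genes, with noise independent between libraries. The shares therefore do not cover low genes or deviations shared between libraries.

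Replicate numbers are shared by the groups in the labels. Deviations from the group means correlated at 0.124, 0.378 and 0.196 between siMENA and Control libraries of the same number, which counts as pairing for this comparison by the rule used (each over 0.1). Named members were the passing ones with the largest changes, the 3 highest and 3 lowest, and genes with a known extra-ribosomal role or a paralog. From other lists, up to 4 passing genes with the largest changes per comparison could be named, and some are shown here. The members and the lists were chosen with earlier results of these data known. Alternatives covered the pseudocount, filter, scaling, groups fitted, trend, replicate block, GC and length correction, repaired values and each library left out.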

Additional observations from a re-analysis of the deposited data

How the results depend on the processing

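The 7 calls under siMENA became 17 with a replicate block and GC and length correction together, and 3 when genes with any repaired value were left out, which leaves 21 of the 77 to test. Leaving out 1 library gave 2 to 9. Over all genes, the calls under siMENA were 3353 of 11825 with the block and the correction, and 1293 of 8461 without repaired genes. The 6 calls under siMENA11a became 1 without repaired genes, and 2 to 5 without 1 library. The 14 calls of siMENA11a against siMENA became 23 with the block and the correction, 3 without repaired genes, and 12 to 17 without 1 library. With the block and the correction, 5306 of 11825 genes passed in that comparison. Without repaired genes the share of the FPKM sum was 14.7% in siMENA, 13.9% in siMENA11a and 13.7% in Control. No gene that passed changed direction under any alternative. The replicate block alone gave 9, 8 and 18 calls, lost none of the 7, 6 and 14, and added RPL36 and RPS28 under siMENA and RPL13A and RPL39L under siMENA11a. Over all 13273 genes the block gave 3149, 3431 and 5648 calls. Same-numbered deviations correlated at 0.206, 0.425 and -0.0302 between siMENA11a and Control and at 0.0863, 0.309 and 0.0203 between siMENA11a and siMENA, which does not count as pairing. Over all genes, 2463 calls under siMENA became 1293 without repaired genes and 1343, 1570, 1555 and 1445 without siMENA replicate 1, siMENA replicate 2, Control replicate 1 and Control replicate 3. The 2583 calls under siMENA11a became 1362 without repaired genes and 1500 without Control replicate 3, and the 4857 of siMENA11a against siMENA became 2716 without repaired genes. Scaling moved the split: under siMENA 1369 genes were higher and 1094 lower, but 1050 and 1345 with median-ratio scaling. The cause was not tested.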
